A study of Saccharomyces cerevisiae with 6 samples.

Results

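The 43 genes described here encode proteins of the small (40S) subunit of the cytosolic ribosome of *Saccharomyces cerevisiae*. They are the *RPS* genes that lie outside chromosomes XII and XIII, of 56 *RPS* genes in the annotation and of 6212 ORFs listed. Of the 43 genes, 42 were listed in the table, 41 were measured on at least 1 array and 39 on all 6. *RPS19A* (YOL121C) was not analysed here. *RPS28A* (YOR167C) had no value on any array, *RPS9A* (YPL081W) lacked a value on wild type array 1, and *RPS30B* (YOR182C) lacked both *ptc1 ptc6* values. The 13 genes on chromosomes XII and XIII were left out because the values of these chromosomes did not correspond between the *ptc1 ptc6* strain and the other strains. The *ptc1 ptc6* and wild type ratios had a Pearson correlation of 0.0156 across 186 ORFs of chromosome XII and 0.543 across 196 ORFs of chromosome XIII, against 0.950 to 0.973 on each of the 12 chromosomes that hold the 43 genes.

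Each array compared rapamycin-treated with mock-treated cells of 1 strain. Mock levels were not compared between strains on these arrays. From these arrays alone, a change in the treated level and one in the mock level therefore cannot be told apart in a difference between strains. On separate arrays, not analysed here, the authors compared both mutants with wild type cells growing without rapamycin. They report almost no effect of the *ptc6* mutation there at a 2-fold threshold. The strains were *ptc6* cells, in which the gene of the protein phosphatase Ptc6 is replaced by a resistance marker, *ptc1 ptc6* cells, which also lack Ptc1, and the wild type strain BY4741 from which both mutants derive. All cells were grown at 28 °C in rich glucose medium and received 200 ng/ml rapamycin, an inhibitor of the TORC1 kinase complex, or its vehicle for 1 h. Each strain had 1 pair of arrays with the dyes exchanged between the treated and the untreated RNA, which counts as 1 biological replicate. No test between strains was therefore made, and the spread given below is technical. The value of a gene is the mean of the log2 ratios, rapamycin over mock, of both arrays, and a gene was considered down-regulated below -1, that is, past 2-fold. *PTC6* (YCR079W) was not measured in *ptc6* or *ptc1 ptc6* cells and gave 1.11 and 0.62 in wild type cells. *PTC1* (YDL006W) was measured only once, at -0.28 in wild type cells. It had no value in *ptc6* cells either, which carry the gene, so the missing values do not check the deletions. A *ptc1* single mutant was not analysed here.

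The small subunit binds the mRNA and holds the decoding centre. Its proteins divide into those of the head, which include several contacts with tRNA, and those of the body and platform. Families named uS occur in all domains of life, whereas families named eS are absent from bacteria. Many yeast ribosomal protein genes are present as A and B copies. Their promoters are bound by Rap1 and Fhl1, and the co-activator Ifh1 associates with Fhl1 while TORC1 is active. The arrays carried whole ORFs amplified by PCR, so that near-identical copies may share signal. That contribution was not tested. Since bulk RNA was hybridized, a change in the RNA of each cell and a change in the fraction of responding cells cannot be told apart.

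Every small subunit gene with a value on both arrays was down-regulated in each strain: 41 of 41 in *ptc6* cells, 40 of 40 in *ptc1 ptc6* cells and 40 of 40 in wild type cells. Of all ORFs outside chromosomes XII and XIII, 13.7% were down-regulated in *ptc6* cells, 14.6% in *ptc1 ptc6* cells and 18.1% in wild type cells. The median log2 ratio was -3.08 in *ptc6* cells (range -4.17 to -1.83), -3.75 in *ptc1 ptc6* cells (-5.04 to -1.92) and -3.65 in wild type cells (-5.15 to -2.04). At the median, 11.8% of the mock-treated level was left in *ptc6* cells, 7.44% in *ptc1 ptc6* cells and 7.98% in wild type cells. Over all ORFs outside the 2 chromosomes, the median log2 ratio was 0.08 in *ptc6* cells, 0.05 in *ptc1 ptc6* cells and 0.04 in wild type cells.

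**Figure D1:**
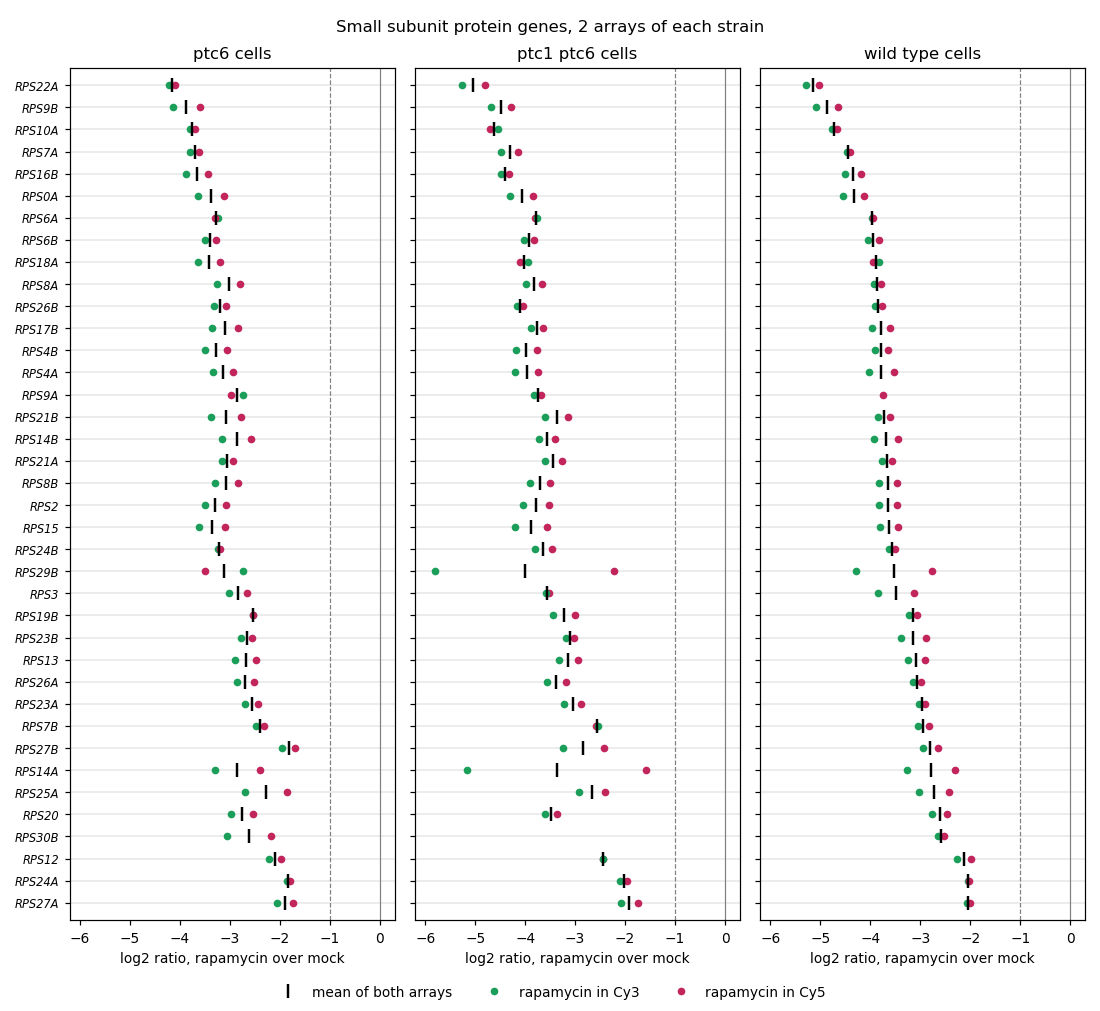
Log2 ratio (rapamycin over mock) of 38 of the 41 measured small subunit protein genes in *ptc6*, *ptc1 ptc6* and wild type cells, ordered by the wild type value. Each point is 1 array, coloured by the dye of the treated RNA, the black bar is the mean, and the dashed line marks -1; every point lies below the line, and *RPS14A* and *RPS29B* have the widest gaps between arrays.

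The strongest repression was measured for *RPS22A* (YJL190C), which encodes uS8 of the body. On arrays 1 and 2 its log2 ratios were -4.23 and -4.11 in *ptc6* cells, -4.80 and -5.27 in *ptc1 ptc6* cells, and -5.28 and -5.02 in wild type cells. It ranked first in every strain, and its *ptc6* values lay above all others. *RPS9B* (YBR189W), which encodes uS4, a protein involved in translational accuracy, gave -4.14 and -3.61 in *ptc6* cells, -4.29 and -4.68 in *ptc1 ptc6* cells, and -5.09 and -4.65 in wild type cells. *RPS10A* (YOR293W), which encodes eS10 of the head, gave -3.80 and -3.71 in *ptc6* cells, -4.71 and -4.54 in *ptc1 ptc6* cells, and -4.77 and -4.67 in wild type cells. For both genes the *ptc6* values lay above both wild type values, and the *ptc1 ptc6* values overlapped with those of wild type.

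The weakest repression in wild type cells was found for *RPS27A* (YKL156W), *RPS24A* (YER074W) and *RPS12* (YOR369C). *RPS27A*, which encodes the zinc-binding eS27, measured -2.06 and -1.75 in *ptc6* cells, -1.75 and -2.09 in *ptc1 ptc6* cells, and -2.07 and -2.00 in wild type cells. *RPS24A*, which encodes eS24, gave -1.87 and -1.81 in *ptc6* cells, -1.95 and -2.10 in *ptc1 ptc6* cells, and -2.05 and -2.03 in wild type cells. The ranges of the 3 strains overlapped for *RPS27A*, and the small shift of *RPS24A* in *ptc6* cells (0.20) exceeded the gaps between its arrays. The genes kept much the same order in the mutants, with a Pearson correlation to the wild type ratios of 0.936 for the *ptc6* strain over 40 genes, and of 0.937 for the *ptc1 ptc6* strain over 39. These correlations run across genes, not replicates, and both use the same wild type arrays.

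Across families and positions in the subunit, the wild type medians lay between -3.65 and -3.57. The median log2 ratio was -3.65 for 22 genes of eS families and -3.63 for 18 genes of uS families. It was -3.57 for 12 genes of the head and -3.65 for 28 genes of the body and platform. The 7 genes without a second copy had a wild type median of -3.48, the 24 genes measured from A and B pairs -3.65, and the 9 genes whose other copy lies on chromosome XII or XIII -3.88.

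In *ptc6* cells, the small subunit genes were less repressed than in wild type cells. The median difference, *ptc6* minus wild type, was 0.53 over 40 genes (range -0.15 to 0.99), equivalent to 1.45-fold more RNA relative to mock, and 37 of the 40 differences were above 0. Both *ptc6* values lay above both wild type values for 30 genes (75%), for 0 genes both lay below, and for 10 genes the values overlapped. In comparison, the *ptc6* values lay above in 29.2% of all ORFs outside chromosomes XII and XIII, with a median difference of 0.04. Over the 480 other ORFs down-regulated in wild type cells, this share was 77.5% and the median difference 0.55. Over 223 other ORFs within the wild type range of the small subunit genes, it was 90.1%, with a median of 0.76. Both sets of ORFs were selected by their wild type values, which also enter the difference.

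**Figure D2:**
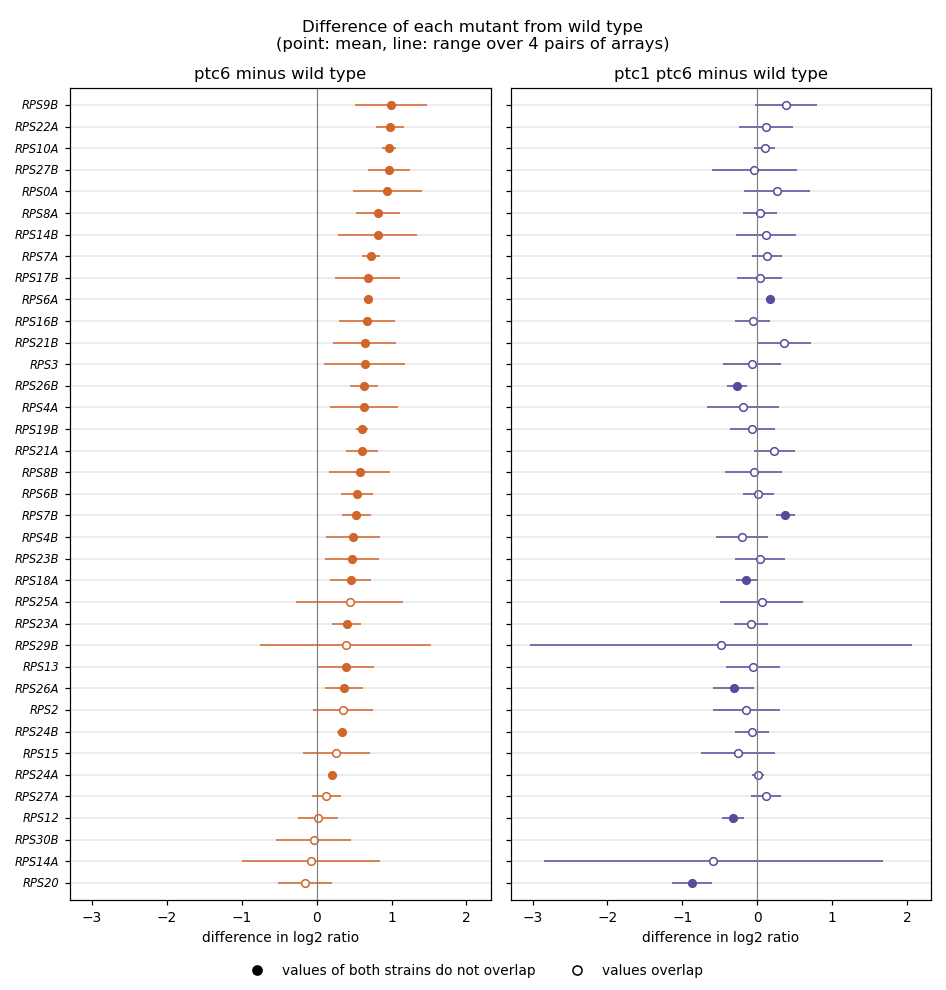
Difference in log2 ratio of *ptc6* (left) and *ptc1 ptc6* cells (right) from wild type cells for 37 of the 40 small subunit protein genes with a difference, with *RPS30B* missing on the right. Points are means, lines span the 4 pairs of arrays, and filled points mark genes whose values do not overlap between the strains: of the genes drawn, 28 above 0 in *ptc6* cells, and 2 above and 5 below in *ptc1 ptc6* cells.

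The largest differences belonged to *RPS9B* (0.99), *RPS22A* (0.98) and, with equal values, *RPS27B* (YHR021C; 0.96) and *RPS10A* (0.96). *RPS27B* measured -1.96 and -1.70 in *ptc6* cells, against -2.95 and -2.64 in wild type cells, and became the least repressed gene of the subunit in *ptc6* cells. At the other end were *RPS20* (YHL015W; -0.15), *RPS14A* (YCR031C; -0.07) and *RPS30B* (-0.04), the 3 genes with a mean difference below 0. *RPS20* encodes uS10 of the head, and its values were -2.98 and -2.55 in *ptc6* cells, against -2.76 and -2.46 in wild type cells. *RPS14A*, which encodes uS11 of the platform, gave -3.30 and -2.41 in *ptc6* cells, against -3.26 and -2.31 in wild type cells. *RPS30B*, which encodes eS30, gave -3.07 and -2.18 in *ptc6* cells, against -2.64 and -2.53 in wild type cells. For these 3 genes the strains overlapped.

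The 10 genes with overlapping values included 5 of the 7 genes without a second copy. These 7 genes cannot share signal with a copy, and their median difference was 0.35, against 0.59 for the 24 genes of A and B pairs, of which 22 did not overlap. *RPS3* (YNL178W), which encodes uS3 at the entry of the mRNA channel, was less repressed in *ptc6* cells, with -3.03 and -2.66, against -3.84 and -3.13 in wild type cells. *RPS13* (YDR064W), which encodes uS15, gave -2.90 and -2.48 in *ptc6* cells, against -3.25 and -2.91 in wild type cells. The values of these 2 genes did not overlap, although for *RPS13* the nearest ones were 0.01 apart. *RPS2* (YGL123W), which encodes uS5, had -3.51 and -3.08 in *ptc6* cells, against -3.83 and -3.46 in wild type cells. *RPS15* (YOL040C), which encodes uS19 of the head, had -3.62 and -3.10 in *ptc6* cells, against -3.81 and -3.44 in wild type cells. For *RPS2* and *RPS15* the mean was higher in *ptc6* cells, by 0.35 and 0.27, but the arrays overlapped. *RPS12*, which encodes eS12 of the head, gave -2.23 and -1.99 in *ptc6* cells, against -2.27 and -1.98 in wild type cells, a difference of 0.01.

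By position, 6 of 12 genes of the head had non-overlapping values, with a median difference of 0.45, and 24 of 28 genes of the body and platform, with a median of 0.56. By family, this held for 18 of 22 eS genes (median 0.59) and 12 of 18 uS genes (median 0.46). Position and copy number go together, since 5 of the 7 genes without a second copy encode head proteins, and their parts in these counts were not tested. The difference also varied with the level of repression. When the 39 genes with all 3 values were ordered by their *ptc1 ptc6* level, which does not enter the difference, the median difference was 0.68 in the most repressed 13 genes, 0.57 in the middle 13 and 0.40 in the least repressed 13. Across these genes, the Pearson correlation between the difference and the *ptc1 ptc6* log2 ratio was -0.538.

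The arrays of each strain differed with the dye. The log2 ratio of the small subunit genes was lower where the treated RNA carried Cy3 in 37 of 41 genes in *ptc6* cells (median gap -0.41), 35 of 40 in *ptc1 ptc6* cells (-0.34) and 39 of 40 in wild type cells (-0.28). Over all ORFs outside chromosomes XII and XIII, the ratio was lower with Cy3 for 2112 of 3265 in *ptc6* cells (median gap -0.11). The same held for 1762 of 3610 in *ptc1 ptc6* cells (0.01) and 1810 of 2960 in wild type cells (-0.08). Each mean holds 1 array of either orientation. The median difference, *ptc6* minus wild type, was 0.55 with only the arrays that had rapamycin in Cy3, and 0.57 with only those in Cy5.

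In *ptc1 ptc6* cells, the response of the small subunit genes was close to that of wild type cells. The median difference, *ptc1 ptc6* minus wild type, was -0.06 over 39 genes (range -0.87 to 0.39), with 17 genes above 0. The values of 32 genes overlapped with those of wild type. Both *ptc1 ptc6* values lay above both wild type values for 2 genes, which is 5.13%, against 19.3% of all ORFs outside chromosomes XII and XIII. They lay below for 5 genes, which is 12.8%, against 23.1% of all ORFs. The 465 other ORFs down-regulated in wild type cells had a median difference of 0.24, and 47.3% of them lay above. For 212 other ORFs within the wild type range of the small subunit genes, the median was 0.30. Both of these sets were selected by their wild type values, which also enter the difference. The large subunit protein genes, not selected in this way, had a median of -0.03, with 6 of 60 genes above and 6 below. With 1 array left out, the median over the small subunit genes took either sign (-0.20 to 0.14), and with the mean of linear ratios it was 0.01.

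The 2 genes above were *RPS7B* (YNL096C), which encodes eS7, and *RPS6A* (YPL090C), which encodes eS6, a protein phosphorylated downstream of TORC1. *RPS7B* measured -2.58 and -2.54 in *ptc1 ptc6* cells, against -3.05 and -2.82 in wild type cells. *RPS6A* gave -3.81 and -3.77 in *ptc1 ptc6* cells, against -3.97 and -3.94 in wild type cells, a difference of 0.17. Among the largest mean differences were also *RPS9B* (0.39) and *RPS21B* (YJL136C; 0.35), whose arrays overlapped with those of wild type. *RPS21B*, which encodes eS21, had -3.13 and -3.61 in *ptc1 ptc6* cells, against -3.85 and -3.60 in wild type cells.

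The 5 genes below were *RPS20*, *RPS12*, *RPS26A* (YGL189C), *RPS26B* (YER131W) and *RPS18A* (YDR450W). *RPS20* showed the largest shift, with -3.37 and -3.59 in *ptc1 ptc6* cells, against -2.76 and -2.46 in wild type cells. Its mean difference of -0.87 corresponds to 0.55 times the wild type ratio, and it was the gene with the lowest difference in *ptc6* cells as well, a comparison that uses the same wild type arrays. *RPS12* had -2.45 on both arrays of *ptc1 ptc6* cells, a difference of -0.33. Both copies of the gene for eS26, a protein at the mRNA exit channel, were lower in *ptc1 ptc6* cells, with differences of -0.32 for *RPS26A* and -0.27 for *RPS26B*. The shift of *RPS18A*, which encodes uS13, was -0.14, and its nearest values were 0.01 apart.

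*RPS14A* and *RPS29B* (YDL061C), which encodes the zinc-binding uS14, had the largest gaps between the arrays of a strain. In *ptc1 ptc6* cells *RPS14A* gave -1.58 and -5.16, and *RPS29B* gave -2.21 and -5.80. These were 2 of only 5 ORFs, of 3610 outside chromosomes XII and XIII, that differed by more than 3 between the arrays of this strain. *RPS29B* had -2.75 and -3.51 in *ptc6* cells and -4.28 and -2.76 in wild type cells. Their mean differences from wild type in *ptc1 ptc6* cells, -0.59 for *RPS14A* and -0.48 for *RPS29B*, lie within these gaps. The correlation between both *ptc1 ptc6* arrays across the small subunit genes was 0.514, and 0.948 without these 2 genes, whereas the median log2 ratio in *ptc1 ptc6* cells was -3.75 with and without them.

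In comparison with *ptc6* cells, the small subunit genes were more repressed in *ptc1 ptc6* cells. The median difference, *ptc1 ptc6* minus *ptc6*, was -0.62 over 40 genes, and 0 genes had a difference above 0. Both *ptc1 ptc6* values lay below both *ptc6* values for 33 genes (82.5%), against 25.7% of all ORFs outside chromosomes XII and XIII, whose median difference was -0.09. Over 456 other ORFs down-regulated in wild type cells this share was 52.2%, with a median of -0.32, and over 210 other ORFs within the wild type range of the small subunit genes it was 69.5%, with a median of -0.51. For the large subunit protein genes it was 83.3% (50 of 60 genes), with a median of -0.58. The values of the other 7 small subunit genes overlapped. The largest shift was that of *RPS27B* (-1.01), with -2.42 and -3.25 in *ptc1 ptc6* cells, against -1.96 and -1.70 in *ptc6* cells. The smallest was that of its A copy, *RPS27A* (-0.01). The authors list *RPS27B* as lower in *ptc1 ptc6* than in wild type cells growing without rapamycin. By itself, a lower mock level raises the ratio of rapamycin over mock. The part of the mock level in the shift of *RPS27B* was not tested. With the arrays of 1 dye orientation only, the median difference was -0.58 for Cy3 and -0.60 for Cy5. The comparisons with wild type cells share the wild type arrays, and those with *ptc6* cells share the *ptc6* arrays.

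Both copies could be compared for 12 of the 13 gene pairs outside chromosomes XII and XIII. The largest differences between copies were found for *RPS7* and *RPS24*. *RPS7A* (YOR096W) was more repressed than *RPS7B* on all 6 arrays, and A minus B was -1.32 and -1.29 in *ptc6* cells, -1.56 and -1.94 in *ptc1 ptc6* cells, and -1.42 and -1.59 in wild type cells. In the *RPS24* pair the B copy (YIL069C) was the more repressed one, with A minus B of 1.37 and 1.40 in *ptc6* cells, 1.51 and 1.71 in *ptc1 ptc6* cells, and 1.57 and 1.48 in wild type cells. On average over the strains, the copies differed by 2.87-fold for *RPS7* and 2.84-fold for *RPS24*. *RPS9B* was more repressed than *RPS9A*, which gave -2.74 and -2.99 in *ptc6* cells, -3.69 and -3.82 in *ptc1 ptc6* cells, and -3.74 on wild type array 2. Of the 11 pairs with values on all arrays, 4 had 1 sign on all 6 arrays, among them *RPS7*, *RPS24* and *RPS26*.

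**Figure D3:**
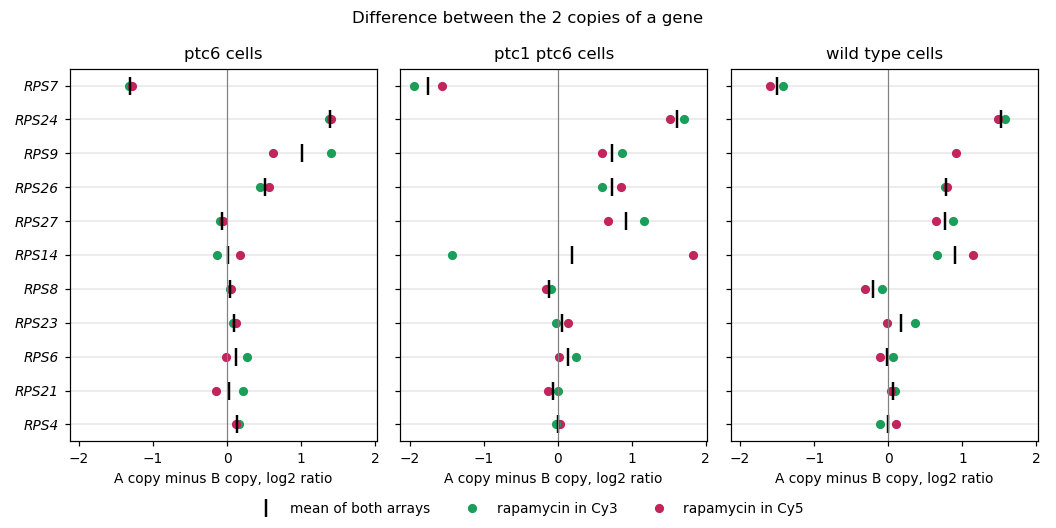
Difference in log2 ratio between the A and B copies of 11 of the 12 compared pairs of small subunit protein genes in *ptc6*, *ptc1 ptc6* and wild type cells, with 1 point for each array, coloured by the dye of the treated RNA, and a black bar for the mean. Positive values mean that the B copy was more repressed; *RPS7* and *RPS24* keep a difference of over 1 in every strain, whereas *RPS27* lies near 0 in *ptc6* cells only.

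In the *RPS27* pair, the difference between copies changed with the strain. A minus B was -0.10 and -0.05 in *ptc6* cells, against 0.67 and 1.16 in *ptc1 ptc6* cells and 0.88 and 0.64 in wild type cells. The 2 copies were thus about equally repressed in *ptc6* cells, and the B copy was the more repressed one in both other strains. *RPS14* also had a lower A minus B in *ptc6* cells (0.02) than in wild type cells (0.90), but its *ptc1 ptc6* values, 1.83 and -1.43, rest on the discordant arrays of *RPS14A*. The smallest differences between copies were those of *RPS4* (YJR145C and YHR203C), *RPS21* (YKR057W and YJL136C) and *RPS6* (YPL090C and YBR181C), with mean absolute differences over the strains of at most 0.09. Signal shared between near-identical copies would also make A minus B small, and its part was not tested. For *RPS4*, A minus B was 0.14 in *ptc6* cells, 0.00 in *ptc1 ptc6* cells and 0.00 in wild type cells. The median absolute difference between copies was 0.13 in *ptc6* cells (12 pairs), 0.33 in *ptc1 ptc6* cells (12 pairs) and 0.50 in wild type cells (11 pairs). It depends on which pairs are counted: with *RPS9* included through array 2 alone, the wild type value was 0.63, and without *RPS14* it was 0.35. The *ptc1 ptc6* value was 0.20 over genes with values on all 6 arrays, 0.49 without array 1, 0.57 without array 2 and 0.60 with the mean of linear ratios, against a wild type value of 0.49 with linear ratios, so that the order of *ptc1 ptc6* and wild type cells was not stable. The *ptc6* value was 0.24 without array 2, and it was the lowest of the 3 strains under each of these settings.

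The other genes of the subunit, described by their range, include components of the head, body and platform. Of these, *RPS0A* (YGR214W), *RPS4A*, *RPS4B*, *RPS6A*, *RPS6B*, *RPS7A*, *RPS7B*, *RPS8A* (YBL072C), *RPS8B* (YER102W), *RPS14B* (YJL191W), *RPS16B* (YDL083C), *RPS17B* (YDR447C), *RPS18A*, *RPS19B* (YNL302C), *RPS21A*, *RPS21B*, *RPS23A* (YGR118W), *RPS23B* (YPR132W), *RPS24B*, *RPS26A* and *RPS26B* were less repressed in *ptc6* than in wild type cells with no overlap. Their differences ranged from 0.34 for *RPS24B* to 0.94 for *RPS0A*. *RPS0A*, which encodes uS2, gave -3.64 and -3.13 in *ptc6* cells, -3.84 and -4.29 in *ptc1 ptc6* cells, and -4.54 and -4.12 in wild type cells. *RPS25A* (YGR027C), which encodes eS25 of the head, differed by 0.44 in *ptc6* cells with overlapping arrays.

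**Figure D4:**
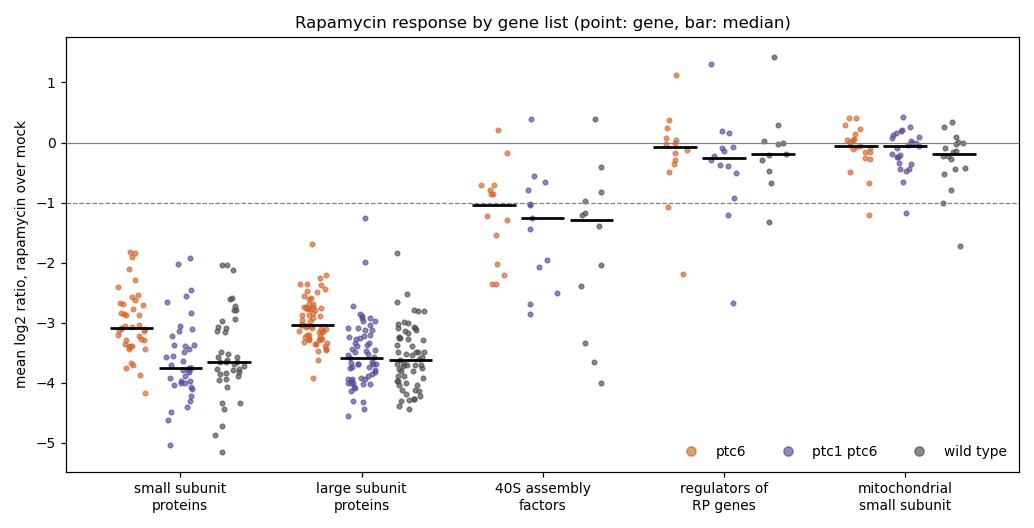
Mean log2 ratio (rapamycin over mock) of the genes of 5 lists in *ptc6*, *ptc1 ptc6* and wild type cells, outside chromosomes XII and XIII. Points are genes, black bars are medians, and the dashed line marks -1; small and large subunit protein genes lie below it in every strain, whereas most mitochondrial small subunit genes lie near 0.

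The large subunit protein genes, set beside those of the small subunit, were likewise down-regulated in every case with a value on both arrays. These were 61 genes in *ptc6* cells (median -3.04), 61 in *ptc1 ptc6* cells (-3.58) and 60 in wild type cells (-3.61). The median difference, *ptc6* minus wild type, was 0.59, with non-overlapping values for 52 of 60 genes, and the median difference, *ptc1 ptc6* minus wild type, was -0.03. The strongest wild type repression in this list was that of *RPL12A* (YEL054C), with -3.77 and -3.47 in *ptc6* cells, -4.16 and -4.48 in *ptc1 ptc6* cells, and -4.70 and -4.17 in wild type cells. *RPL9A*, *RPL5* and *RPL16A* followed, with wild type means from -4.38 to -4.29.

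Factors that assemble the 40S subunit responded less uniformly. Of those measured, 7 of 14 were down-regulated in *ptc6* cells (median -1.04), 9 of 13 in *ptc1 ptc6* cells (-1.26) and 8 of 12 in wild type cells (-1.29). The corresponding shares of all ORFs outside chromosomes XII and XIII were 13.7%, 14.6% and 18.1%. *RRP12* (YPL012W), an export factor of both subunits, gave -1.90 and -2.16 in *ptc6* cells, -3.08 and -2.29 in *ptc1 ptc6* cells, and -3.52 and -4.49 in wild type cells. It stood above wild type in both mutants with no overlap. The genes named from this list were picked by their wild type response, which also enters the difference. Over the list, the median difference, *ptc6* minus wild type, was 0.46, with 10 of 12 genes above 0. Both *ptc6* values lay above both wild type values for 9 of 12 genes, against 29.2% of all ORFs. For *ptc1 ptc6* cells this held for 5 of 11 genes, against 19.3%. *ENP1* (YBR247C), a component of pre-40S particles, averaged -2.35 in *ptc6* cells, -2.85 in *ptc1 ptc6* cells and -3.66 in wild type cells. *TSR1* (YDL060W), a late assembly factor, averaged -2.20 in *ptc6* cells, -2.51 in *ptc1 ptc6* cells and -3.33 in wild type cells. *PNO1* (YOR145C) averaged -1.53 in *ptc6* cells, -2.07 in *ptc1 ptc6* cells and -2.38 in wild type cells.

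Most regulators of ribosomal protein genes stayed within 2-fold. Down-regulation was found for 2 of 14 in *ptc6* cells, 2 of 14 in *ptc1 ptc6* cells and 1 of 11 in wild type cells. These shares of 14.3%, 14.3% and 9.09% stand beside 13.7%, 14.6% and 18.1% of all ORFs outside chromosomes XII and XIII. *YAK1* was up-regulated in each strain. *RAP1* (YNL216W) had means of -1.08 in *ptc6* cells, -1.21 in *ptc1 ptc6* cells and -1.31 in wild type cells. *UTP22* (YGR090W), which takes part in rRNA processing and binds Ifh1, averaged -2.19 in *ptc6* cells and -2.67 in *ptc1 ptc6* cells, and had 1 wild type value, -2.86. The kinase gene *YAK1* (YJL141C) averaged 1.12 in *ptc6* cells, 1.30 in *ptc1 ptc6* cells and 1.43 in wild type cells. *RRP7* (YCL031C) and *SCH9* (YHR205W), which encodes a kinase activated by TORC1, had wild type means between -0.68 and -0.47.

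The nuclear genes for the small subunit of the mitochondrial ribosome were not repressed as a group. Down-regulation was found for 1 of 21 in *ptc6* cells (median -0.06), 1 of 25 in *ptc1 ptc6* cells (-0.05) and 2 of 18 in wild type cells (-0.19). These are 4.76%, 4% and 11.1%, against 13.7%, 14.6% and 18.1% of all ORFs outside chromosomes XII and XIII. *RSM26* (YJR101W) averaged -1.21 in *ptc6* cells, -1.17 in *ptc1 ptc6* cells and -1.73 in wild type cells. *RSM25* (YIL093C) had wild type values of -1.17 and -0.84, and *MRP1* and *MRP13* had wild type means of -0.79 and -0.52. For 8 uS families, both the cytosolic and the mitochondrial protein had a measured gene in wild type cells. The cytosolic log2 ratio was lower in 8 of 8, from -4.87 to -2.61, against -0.44 to 0.26 for the mitochondrial counterpart. For uS4, *RPS9B* had a wild type mean of -4.87 and the mitochondrial *NAM9* (YNL137C) one of -0.09.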

How the data were processed

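Per the labels, 2-colour arrays of yeast ORFs were hybridized with 8 µg of total RNA of each culture, and spots under 120 µm in diameter or under 150 fluorescence units were excluded by the authors. The authors deposited a log2 ratio, rapamycin over mock, for each ORF and array. The normalization method is not given in the sources used here, and intensities were not analysed here, so the signal over background is unknown. The median ratio of an array lay between 0.03 and 0.12 over ORFs outside chromosomes XII and XIII, and values were not normalized again. The number of arrays limits the precision.

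Values were averaged over the arrays of a strain, with a value required on both. Means below -1 were called down-regulated. Values of 2 strains were called non-overlapping when both values of 1 strain lay above both of the other. No test was made, as each strain had 1 biological replicate. ORFs were named through a RefSeq annotation (5639 of 6212 matched), and no coordinates or sequences are given. Introns were not analysed here. The genes and lists were chosen from general knowledge, with earlier results of these data known. Named are the 3 genes at each end of the wild type level and of both differences from wild type, the 3 pairs at each end of the copy difference, the 7 genes without a second copy, up to 4 genes of each other list with the largest wild type response, and genes with missing values. The other members, *NAM9* and *UTP22* were named after their values were seen.

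Results were recomputed, where a choice applied to them, with genes measured on 1 array included, with median-centred arrays, with the mean of linear ratios, without each array, with genes on all 6 arrays, with other thresholds (1.5-fold, 3-fold, or 2-fold on every single array), with 1 value for each pair, and with single copy genes alone. After the data were seen, single dye orientations and the omission of *RPS14A* and *RPS29B* were added. The medians, the differences and the calls of overlap and down-regulation were checked on simulated ratios. The simulated noise was independent between arrays and held no dye gap. The check therefore covers the computation, not how often values overlap in these data. Python 3.11.15, numpy 2.4.6, pandas 2.3.3 and matplotlib 3.10.9 were used. Values of 3 members are not reported here singly, and these members enter the counts and medians only.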

Additional observations from a re-analysis of the deposited data

How the results depend on the processing

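The numbers of down-regulated small subunit genes, the median log2 ratios and the median differences between strains stayed within their spread or within 1.5 times under every alternative run for them. For the medians, the runs without 1 array were nearly bound to do so, since the spread comes from the same single arrays. The numbers of genes with non-overlapping values also stayed within 1.5 times. They were recomputed only with centred arrays and with genes on all 6 arrays. The median difference of *ptc1 ptc6* from wild type cells, which lies near 0, took either sign (-0.20 to 0.14 when single arrays were left out, 0.01 with linear ratios). The median difference of *ptc6* from wild type cells was 0.39 to 0.71 when single arrays were left out, and 0.35 in single copy genes. The median absolute difference between copies moved most. It was 0.16 to 0.24 in *ptc6* cells, 0.49 to 0.57 in *ptc1 ptc6* cells and 0.53 to 0.55 in wild type cells when single arrays were left out. With linear ratios it was 0.60 in *ptc1 ptc6* cells, and with genes on all 6 arrays 0.20. Without *RPS14A* and *RPS29B* it was 0.47 in *ptc1 ptc6* cells and 0.35 in wild type cells, and with a value on at least 1 array 0.63 in wild type cells. The cause was not tested. For 60 genes (the 42 listed small subunit genes and the 18 others named), the wild type ratio and the differences between strains were recomputed with centred arrays and without each array. Of 1596 such values, 6 moved by more than their spread. Leaving out 1 array cannot move a value by more than this spread, which comes from the same arrays. Only the centred arrays could do so, and the low count is no measure of stability. The sign changed in 84, which belong to 51 of 171 differences, all between strains whose arrays overlapped. Non-overlapping differences cannot change sign by leaving out 1 array, and with centred arrays 0 did. Without *ptc1 ptc6* array 2 the difference from wild type cells was 1.20 for *RPS14A* and 1.31 for *RPS29B*. The arrays of a strain are a dye swap of 1 biological replicate, and no result comes from a test. Arrays of 2 strains were paired by dye orientation only for the median differences given for 1 dye orientation. The other median differences compare the means of both arrays, and neither they nor the calls of overlap use this pairing. Signal over background is unknown.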
